A study of Mus musculus with 32 samples.

Results

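The red cell microRNAs miR-144, miR-451a and miR-486 were followed in the mesenteric arteries of mice given angiotensin II (Ang II) or a sham operation. Members were the rows of the deposited miRNA table named miR-144, miR-451a, miR-486 or miR-3107 on either arm. The table held 10 such rows. Copies that repeated a name or carried equal values were counted once, which left 5 distinct rows of 1030. They were miR-144-5p, miR-144-3p, miR-451a, miR-486-5p (equal to miR-3107-5p) and miR-486-3p (equal to miR-3107-3p). All 5 passed the filter on low values, a mean of at least 1, which 543 of the 1030 rows passed.

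The mice were male C57BL/6J wild types aged 10 to 12 weeks, and carried no engineered allele. Osmotic pumps delivered Ang II, a peptide hormone that raises blood pressure, under the skin at 1000 ng/kg/min. Arteries were taken after 7 days or after 14 days, and each time had its own sham-operated control. With 2 treatments and 2 times there were 4 groups, of 8 small RNA libraries each. The arteries were freed of fat and veins, and the labels' protocols name no step that flushes blood out of them. Library titles carry a different number each, and the labels do not say whether tissue was pooled, so p-values measure the spread between these libraries.

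miR-144 and miR-451a are cut from neighbouring hairpins of 1 transcript that the factor GATA1 switches on in developing red cells. miR-451a is the known exception to Dicer processing: its hairpin is too short for Dicer and is cut by Argonaute 2. miR-486 is made in red cells and also in striated muscle, from a gene within Ank1, which encodes the membrane skeleton protein ankyrin-1. Mature red cells have no nucleus but keep these miRNAs. Messenger RNAs of red cells, such as those of the globins, were not analysed here.

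The mature sequences available for the members are shown first, since they define which targets each strand can pair with. Capitals mark the seed, bases 2 to 8 counted from the 5′ end.
miR-144-5p: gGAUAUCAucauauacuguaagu
miR-144-3p: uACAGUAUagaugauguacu
miR-451a: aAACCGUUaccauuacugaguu
The 3 seeds differ from one another. The sequences are from RefSeq on build GRCm38.p6, which held 3 of the 5 members.

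The hairpins are shown because the position of the mature strand differs between them. Capitals mark the mature strands.
Mir144: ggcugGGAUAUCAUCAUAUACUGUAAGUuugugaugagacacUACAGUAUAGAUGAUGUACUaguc
Mir451a: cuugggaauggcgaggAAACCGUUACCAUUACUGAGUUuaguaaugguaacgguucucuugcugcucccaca
In a predicted fold, the Mir144 hairpin had 27 base pairs and neither arm reached into its loop. The Mir451a hairpin had 30 base pairs, and 4 bases of miR-451a lay in the loop. Mir144 lies at chr11:78073005-78073070 and Mir451a at chr11:78073170-78073241, both on the plus strand of GRCm38, with 99 bases between them. No other annotated gene overlaps Mir144, and Mir451b is annotated opposite Mir451a. Mir486 lies at chr8:23142555-23142682 in an intron of Ank1, and Mir3107 lies on the opposite strand at chr8:23142573-23142662. The kept rows of miR-486 and miR-3107 carried equal values on each arm, so their reads cannot be told apart in this table.

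The values are the authors' normalised signal, scaled as reads per M (mega) would be and called RPM here. Per library, 11.4 to 18.8 M reads fell in distinct rows, and 3 reads corresponded to 0.0888 to 0.351 RPM. Every member exceeded that limit in every library. Libraries were split into 2 classes by the sign of the leading principal component of the within-group spread, which was computed without the members. Group means were subtracted first, so class is relative to a library's own group. Some scores lay near the cut, such as 0.023 and 0.027 in 2 class A libraries of the 14-day groups. Class A held 19 libraries and class B 13. Deposited totals per library ran from 0.727 to 1.24 M in class A and from 1.15 to 1.67 M in class B. At 7 days class A made up 5 sham and 3 Ang II libraries, and at 14 days 5 sham and 6 Ang II libraries. Values within each class are given beside the pooled ones. The smooth muscle miRNAs that mark the arterial wall summed to 196040 to 739440 RPM per library. In these bulk samples, more red cells and more of a miRNA per cell cannot be told apart.

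The members spanned more than 3 orders of magnitude in level. miR-486-5p was by far the most abundant, at 5612 to 67509 RPM (median 21120) over the 32 libraries, or 0.536% to 5.53% of the reads in distinct rows. miR-451a followed at 232 to 1627 RPM (median 718). miR-144-3p ran from 20.2 to 237 RPM (median 62.7) and miR-144-5p from 9.15 to 179 RPM (median 46.0). miR-486-3p, the minor arm of miR-486, was lowest at 2.54 to 17.9 RPM (median 6.85), from 35 to 252 reads per library. miR-486-5p lay above every other member in every library, whereas neighbouring members further down that order overlapped in range. RPM counts reads of whole mature strands, 20 to 23 bases for those printed above, so levels were not divided by length.

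**Figure D1:**
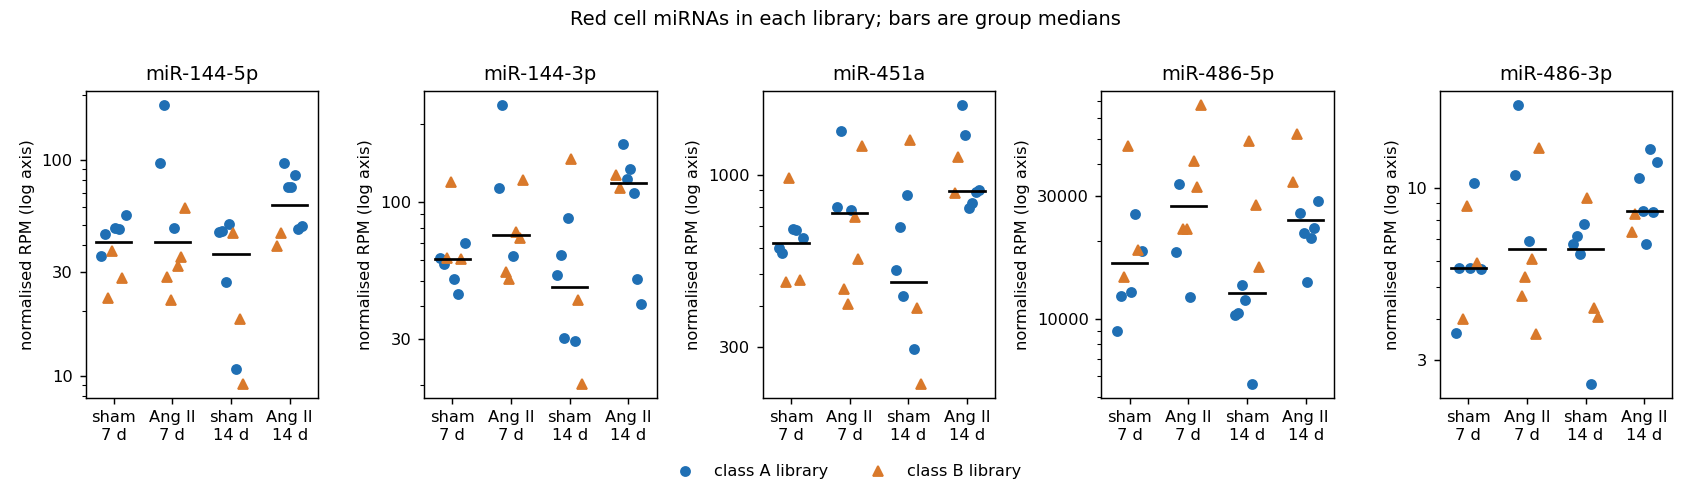
Normalised RPM (log axis) of each member in each of the 32 libraries, by group; circles are class A, triangles class B and bars group medians. In the 14-day groups all 8 Ang II libraries lie above the sham median for 4 of the 5 members, yet the ranges overlap for all 5.

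The central question was whether Ang II altered these miRNAs. After 14 days, miR-144-5p and miR-451a rose, 2.24-fold and 1.98-fold. The other 3 members had log2 fold changes between 0.61 and 1.00 that did not pass the test.

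miR-451a had 232, 295, 395, 430, 514, 692, 867 and 1271 RPM in the 14-day sham libraries. In 14-day Ang II it had 793, 819, 881, 884, 896, 1128, 1322 and 1627 RPM. All 8 Ang II libraries exceeded the sham median, 6 sham libraries lay below every Ang II library, and 1 sham library (1271 RPM) lay within the upper part of the Ang II range. The log2 fold change was 0.99 ± 0.27 (SE; 95% interval 0.43 to 1.55), with an adjusted p of 0.0296.

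miR-144-5p had 9.15, 10.8, 18.2, 27.1, 45.9, 46.1, 46.8 and 50.5 RPM in 14-day sham. In 14-day Ang II it had 39.9, 45.6, 47.7, 49.5, 74.3, 74.6, 84.5 and 96.3 RPM. In sham, 4 libraries were below every Ang II library, and with Ang II, 4 libraries were above every sham library. The log2 fold change was 1.16 ± 0.36 (SE; interval 0.42 to 1.90, adjusted p = 0.0493), so this call sat at the threshold.

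For the partner strand miR-144-3p the log2 fold change was 1.00 ± 0.34 (SE), short of the threshold at an adjusted p of 0.0698. Its Ang II libraries ran from 40.7 to 167 RPM (median 118) and its sham libraries from 20.2 to 147 RPM (median 47.5). Of the Ang II libraries 7 of 8 exceeded the sham median, but only 1 exceeded every sham library.

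miR-486-5p ran from 13969 to 51844 RPM (median 24137) with Ang II and from 5612 to 48795 RPM (median 12667) in sham. Its log2 fold change was 0.80 ± 0.37 (SE; interval 0.06 to 1.55, adjusted p = 0.164). miR-486-3p ran from 6.75 to 13.1 RPM (median 8.49) with Ang II and from 2.54 to 9.33 RPM (median 6.54) in sham. Its log2 fold change came to 0.61 ± 0.25 (SE, adjusted p = 0.121). Both arms had all 8 Ang II libraries above the sham median.

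Thus 2 of 5 members were called higher at 14 days, where 4.42% of the 543 tested rows were called higher. All 5 lay above 0, as did 50.1% of tested rows, and all 5 had an unadjusted p under 0.05, against 25.8% of tested rows. Among the 5 are arms of the same hairpin and hairpins of the same transcript, so they are not independent results. The members' median log2 fold change was 0.99, and that of all tested rows was 0.002. All 8 Ang II libraries lay above the sham median for 4 of the 5 members, which held for 8.66% of tested rows. No member's groups were free of overlap, against 0.368% of rows.

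**Figure D2:**
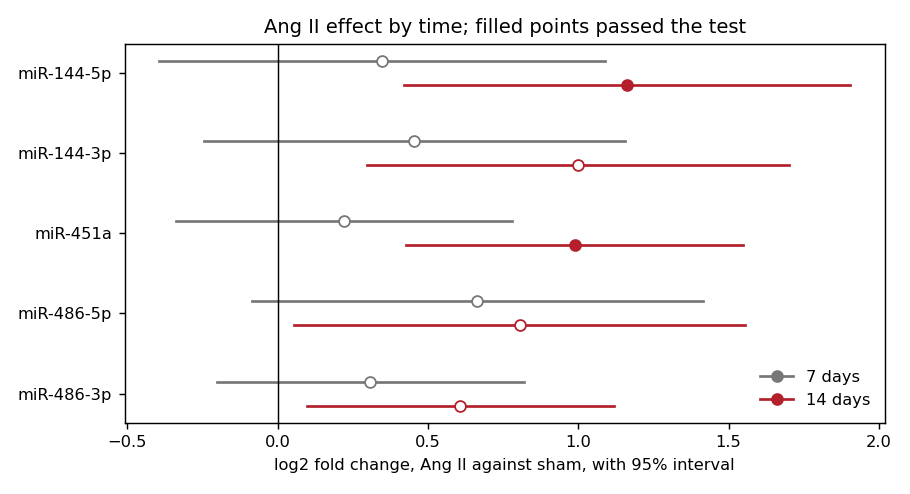
Log2 fold change of each member, Ang II against sham, with 95% intervals from limma; grey is 7 days and red 14 days, and filled points passed an adjusted p of 0.05. The 14-day points lie between 0.61 and 1.16, with 2 filled, and the 7-day points between 0.22 and 0.66, with none filled.

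The 14-day differences had the same direction in both library classes. Within class A (6 Ang II, 5 sham), log2 fold changes were 1.09 for miR-144-5p, 0.93 for miR-144-3p, 0.96 for miR-451a, 1.12 for miR-486-5p and 0.66 for miR-486-3p. Within class B (2 Ang II, 3 sham) they were 1.06, 1.24, 1.03, 0.60 and 0.44 in that order. The largest series of library titles, those whose number starts with 26 (5 Ang II, 6 sham), gave 0.87, 1.17, 0.87, 1.04 and 0.34. No member was called within any of these smaller subsets, where 0% of tested rows were called in class A, 0.368% in class B and 0% among titles starting with 26.

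miR-486-5p was the member whose log2 fold change moved most when class entered the model, from 0.80 to 0.93. Within class A its 6 Ang II libraries (13969 to 28562 RPM) lay above all 5 sham libraries (5612 to 13512 RPM), a separation seen in 2.21% of tested rows. Within class B, its sham libraries (15853 to 48795 RPM) and Ang II libraries (34066 and 51844 RPM) overlapped. With class as a term of the model, 4 of 5 members were called higher, against 8.66% of tested rows. They were miR-144-5p (1.05, adjusted p = 0.0229), miR-451a (0.96, adjusted p = 0.0229), miR-486-5p (0.93, adjusted p = 0.0328) and miR-144-3p (1.00, adjusted p = 0.0499). miR-486-3p was not (0.57, adjusted p = 0.104). Class was derived from the spread of these same libraries. With it as a term, calls over all tested rows in either direction rose from 35 to 80, so the added member calls are not independent evidence.

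The 14-day calls depended on single libraries, among the members and over all tested rows. With 1 of the libraries compared left out, 21 to 42 of the 543 tested rows were called, against 35 with none left out. miR-451a was called in 12 of 16 such fits, with a log2 fold change of 0.83 to 1.18. Its call ended without 14-day sham replicate 6, 7 or 8 or 14-day Ang II replicate 3 (adjusted p = 0.0532, 0.0527, 0.0770 and 0.0691). miR-144-5p was called in 5 of 16 such fits. Its call ended without sham replicate 3, 6, 7 or 8 or Ang II replicate 1, 3, 4, 5, 6, 7 or 8 of the 14-day groups, with an adjusted p of up to 0.114. miR-144-3p was called without sham replicate 5 (adjusted p = 0.0296) or Ang II replicate 8 (adjusted p = 0.0351) but did not pass over all libraries. With title series as a term of the model, miR-144-3p was called (1.33, adjusted p = 0.0157), miR-451a was called (0.98, adjusted p = 0.0332) and miR-144-5p was not (1.22, adjusted p = 0.0594). Neither miR-451a nor miR-144-5p was called by the edgeR quasi-likelihood test (adjusted p = 0.0586 for miR-451a and 0.0736 for miR-144-5p).

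After 7 days no member was called, against 0.184% of tested rows in either direction. All 5 log2 fold changes were above 0, as were 46.6% of tested rows, with a median of 0.35. miR-486-5p had the largest, 0.66 ± 0.37 (SE, adjusted p = 0.756), from a sham range of 8951 to 46644 RPM and an Ang II range of 12118 to 67509 RPM. Of its Ang II libraries 7 of 8 exceeded the sham median.

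The other 4 members varied widely with 7-day Ang II. miR-451a ran from 405 to 1351 RPM (median 763) with Ang II and from 471 to 977 RPM (median 620) in sham (log2 fold change 0.22, adjusted p = 0.953). miR-144-5p had nearly equal medians, 41.7 RPM with Ang II and 41.6 RPM in sham, while its highest Ang II library reached 179 RPM. Without that library its log2 fold change was 0.09 in place of 0.35. The log2 fold changes of miR-144-3p (0.46) and miR-486-3p (0.31) each came with an adjusted p of 0.861.

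Within class A at 7 days (3 Ang II, 5 sham) the log2 fold changes of miR-144-5p, miR-144-3p, miR-451a, miR-486-5p and miR-486-3p were 1.01, 1.07, 0.57, 0.41 and 0.81. Within class B (5 Ang II, 3 sham) they were 0.21, -0.09, 0.04, 0.54 and 0.002. None passed in either class, and 0% of tested rows did. Among titles starting with 27 (5 Ang II, 4 sham) they were 0.68, 0.26, 0.12, 0.31 and 0.55, and among those starting with 28 (3 Ang II, 4 sham) -0.09, 0.65, 0.37, 1.29 and 0.01. No member and 0% of tested rows were called in either series.

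Whether the Ang II effect grew from 7 to 14 days was tested directly. The difference of effects was 0.77 ± 0.39 (SE; interval -0.02 to 1.56) for miR-451a, with an adjusted p of 0.804. It was 0.81 for miR-144-5p, 0.54 for miR-144-3p, 0.30 for miR-486-3p and 0.14 for miR-486-5p, and none was called, against 0% of tested rows. No member was called between the sham groups of the 2 times (log2 differences of -0.52 to -0.05, 14 minus 7 days, with 0% of rows called). None was called between the Ang II groups (-0.11 to 0.48, with 0% of rows called). The 95% intervals of the comparisons between sham groups and between Ang II groups reached from -1.26 to 1.04 at their extremes. Those of the difference of effects reached from -0.92 to 1.86. Every 7-day title started with 27 or 28, while titles starting with 26 or 30 occurred at 14 days alone. Time therefore cannot be fully told apart from title series in the comparisons of the 2 times.

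Members were among the more variable miRNAs within groups. Their SD of log2 values was 0.77 for miR-486-5p, 0.76 for miR-144-5p, 0.71 for miR-144-3p, 0.57 for miR-451a and 0.51 for miR-486-3p, against a median of 0.36 over tested rows. These values lay between the 72.7 and 89.7 percentiles of the tested rows.

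The balance between the 2 arms of a hairpin was compared next, because a ratio within a library depends little on its scaling. Each ratio was taken after 1 RPM was added to both values, so scaling is not fully removed for low miRNAs. No ratio differed between Ang II and sham past the threshold. For miR-144-5p over miR-144-3p the 14-day difference was 0.16. Over 8 libraries a group, the mean log2 ratio was -0.69 ± 0.62 (SD) with Ang II and -0.85 ± 0.56 (SD) without it (exact permutation p = 0.586, adjusted p = 0.781). The ratios of miR-451a to miR-144-3p and of miR-486-5p to miR-451a or miR-144-3p differed by -0.23 to 0.44. Over the 8 tests the adjusted exact permutation p ran from 0.781 to 0.961 (n = 8 each).

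The arm ratios of miR-144 and miR-486 differed between the library classes, given here as a description. miR-144-5p exceeded miR-144-3p in 2 of 19 class A libraries and in 0 of 13 class B libraries. The ratio of miR-144-5p to miR-144-3p was 0.386 to 1.21 (median 0.778) in class A and 0.317 to 0.535 (median 0.445) in class B, and 18 of 19 class A libraries lay above every class B library. The ratio of miR-486-5p to miR-486-3p was 1293 to 2746 (median 1815) in class A and 2677 to 7059 (median 4725) in class B. Of the class B libraries 12 of 13 lay above every class A library. All these ratios include the added 1 RPM, which lowers those of miR-486 because miR-486-3p was low. For miR-451a over miR-144-3p the class B libraries (median 8.16) all lay within the class A range (5.69 to 21.5).

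Among 116 hairpins with both arms measured, the log2 arm ratio shifted between classes by -1.57 to 2.63, with a median of -0.10. The miR-486 shift (1.38, class B minus class A) was the second highest, and the miR-144 shift (-0.80) ranked 106 from the highest. The Ang II results within each class and with class as a term are those given above.

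**Figure D3:**
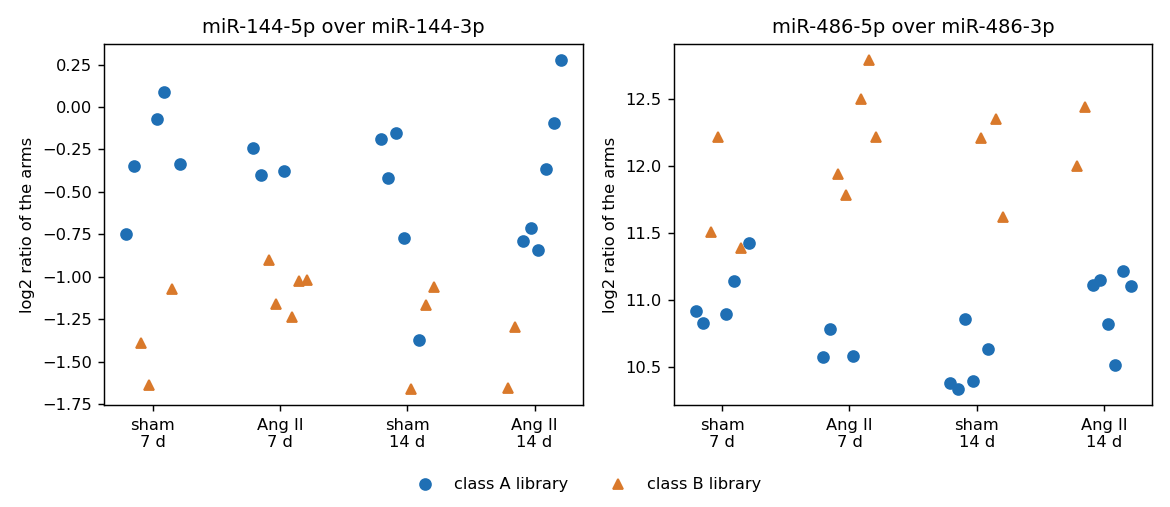
Log2 ratio of the 5p to the 3p arm for miR-144 (left) and miR-486 (right) in each library, by group; circles are class A and triangles class B, spread sideways only for legibility. Class A lies above class B for miR-144 and below it for miR-486, with 1 library as the exception in each panel, while Ang II and sham overlap.

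Members of the miR-144/miR-451a cluster were correlated among libraries after subtraction of group means, though not evenly in every group. Over all groups, miR-451a and miR-144-3p had a Pearson r of 0.81 and a Spearman rho of 0.71 over 32 libraries (permutation p = 2e-05 and 5e-05, adjusted 7.5e-05 and 0.000125). Without the 2 libraries farthest from the median, r was 0.73. Within classes r was 0.69 in class A and 0.97 in class B, and within the 3 larger title series 0.52 to 0.91. miR-451a and miR-144-5p had an r of 0.78 and a rho of 0.77 (permutation p = 1e-05, the smallest possible here, and 3e-05), with 0.77 in class A and 0.96 in class B. Within single groups of 8 libraries r between miR-451a and miR-144-3p was 0.57 in 7-day sham, 0.88 in 7-day Ang II, 0.98 in 14-day sham and 0.44 in 14-day Ang II. Between miR-451a and miR-144-5p it was 0.53, 0.84, 0.89 and 0.40 in that order.

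Pooled correlations of miR-486-5p with miR-451a and miR-144-5p were below those within either class. With miR-451a its r was 0.44 and its rho 0.25 (permutation p = 0.0283 and 0.214, adjusted 0.0391 and 0.268). Within class A r was 0.56 (adjusted permutation p = 0.0260) and within class B 0.93 (adjusted permutation p = 0.0009). With miR-144-5p the pooled r was 0.05 (permutation p = 0.811, adjusted 0.811), against 0.59 in class A and 0.87 in class B. The class A value was 0.31 without the 2 farthest libraries, so it rests on them. With miR-144-3p r was 0.37 pooled (permutation p = 0.0565, adjusted 0.0628), 0.20 in class A and 0.86 in class B.

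The 2 arms of miR-486 showed the same feature, with an r of 0.42 over all libraries (adjusted permutation p = 0.0391), 0.89 in class A and 0.84 in class B. The 2 arms of miR-144 had an r of 0.71 pooled, 0.82 in class A and 0.97 in class B, but within single groups r was -0.14 in 7-day sham, 0.94 in 7-day Ang II, 0.82 in 14-day sham and 0.50 in 14-day Ang II. In all, 10 pairs were tested. By Pearson r 8 passed in the pooled libraries, 8 in class A and 10 in class B, and by Spearman rho 6, 4 and 10.

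**Figure D4:**
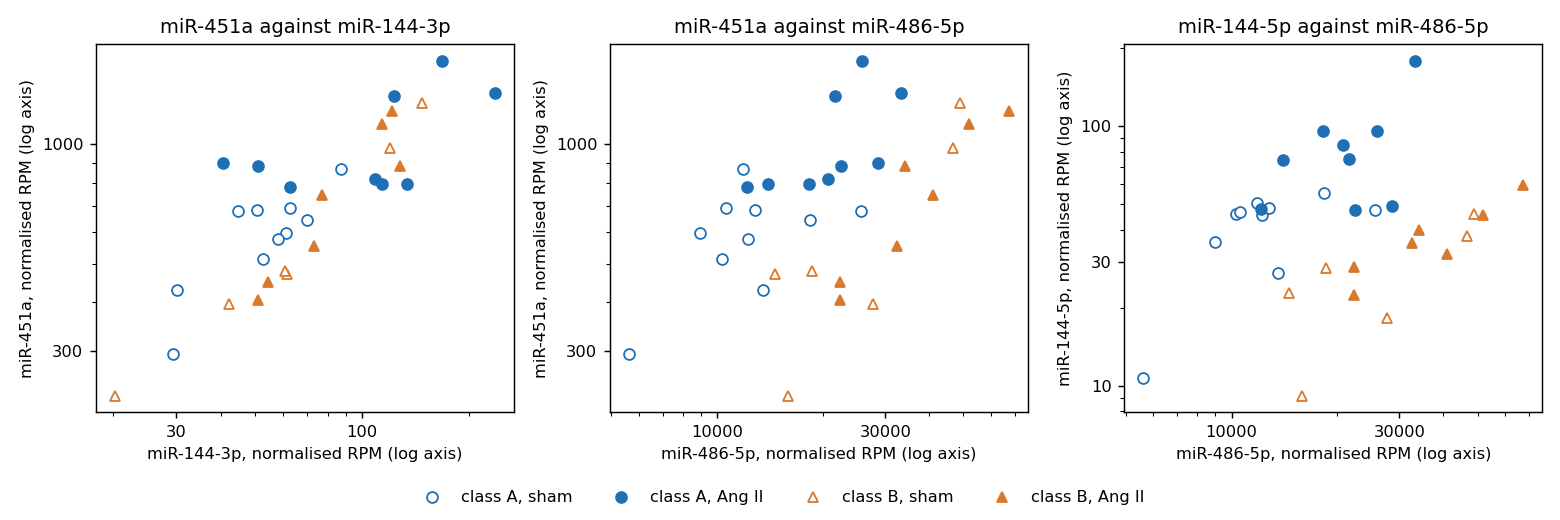
Normalised RPM of 3 member pairs in each library (log axes); circles are class A, triangles class B, filled points Ang II and open points sham. miR-451a and miR-144-3p lie along 1 band. In the panels with miR-486-5p class B tends to lie to the right of class A, though the classes overlap on that axis.

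Other miRNAs abundant in red cells, which many tissues also make, did not pass the test at 14 days. Among all 543 tested rows, 35 were called at 14 days, 24 higher and 11 lower, and 50.1% lay above 0. These counts are the background for each list below. Of the 14 other red cell miRNAs listed, 12 were tested, 0 were called and 9 had a log2 fold change above 0, with a median of 0.21. At 7 days 0 of the 12 were called, against 0.184% of tested rows. Of the 12, 11 lay above 0 at 7 days (median 0.11), as did 46.6% of tested rows. Those with the smallest p at 14 days were miR-185-5p (log2 fold change 0.40, adjusted p = 0.0909), miR-93-5p (0.31, adjusted p = 0.0924) and miR-15b-5p (0.66, adjusted p = 0.117). Of 6 miRNAs that decline as red cells mature, 0 were called and 4 lay above 0 (median 0.16). The nearest to the threshold was miR-155-5p, with a log2 fold change of 0.35 (adjusted p = 0.168), followed by miR-222-3p (0.37) and miR-221-3p (0.12). These 6 are not particular to red cells, since miR-150-5p and miR-223-3p are also counted in the leukocyte list below.

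Markers of other cells were read beside the members. Of 8 leukocyte miRNAs 0 were called and 6 lay above 0 at 14 days (median 0.26). Their summed level was 595 to 1066 RPM in 14-day sham and 654 to 1393 RPM in 14-day Ang II. The nearest to the threshold were miR-223-5p (0.39, adjusted p = 0.0825), miR-511-3p (0.32, adjusted p = 0.0901) and miR-142-5p (0.49, adjusted p = 0.107). Their part in the members' result was not tested.

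Striated muscle also makes miR-486. Of its 7 listed miRNAs, 3 were tested and 0 were called, and all 3 lay below 0. They were miR-133a-3p (-0.22), miR-133b-3p (-0.22) and miR-1a-3p (-0.20). Their summed level with the untested members was 864 to 1152 RPM in 14-day sham and 558 to 1208 RPM in 14-day Ang II. Of the 4 smooth muscle miRNAs 0 were called at 14 days (median -0.07), with miR-143-3p at -0.32, miR-143-5p at 0.27 and miR-145a-3p at -0.12. At 7 days miR-145a-3p was called lower with Ang II (-0.60, adjusted p = 0.028), the only 1 of 543 tested rows called at that time. No row was called at 7 days with library totals, with the compared groups alone or in several fits that left out 1 library. Both endothelial arms lay below 0 (miR-126-5p -0.53 and miR-126-3p -0.12) without passing.

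All 7 epithelial miRNAs lay below 0 at 14 days (median -0.69), where 50.1% of tested rows lay above 0. Whether the 7 vary independently was not tested. Of them, miR-203-3p fell (-0.52, adjusted p = 0.0174), 1 of 11 rows called lower among the 543 tested. miR-141-3p (-0.85, adjusted p = 0.0510) and miR-200c-3p (-0.69, adjusted p = 0.0705) did not pass. Their summed level was 1336 to 5015 RPM in 14-day sham and 1119 to 1750 RPM in 14-day Ang II, and their part in the members' result was not tested. The log2 fold change of miR-122-5p, a miRNA of liver and plasma, was 0.007 ± 0.36 (SE). Its mean was 1.01 RPM over the 32 libraries, near the filter limit, and its lowest 14-day sham library had 0 RPM. Its value is therefore uncertain.

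**Figure D5:**
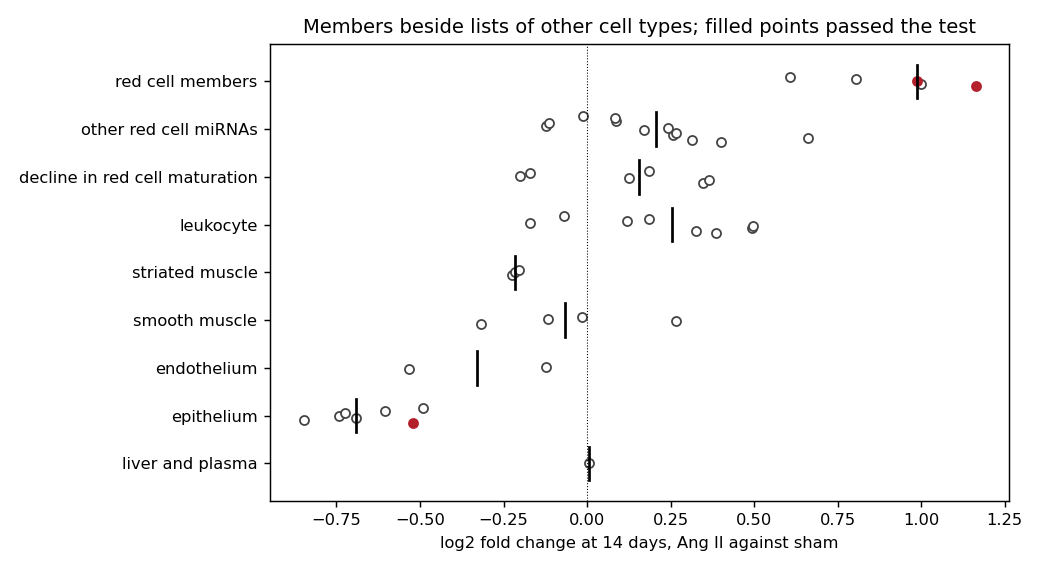
Log2 fold change at 14 days (Ang II against sham) of the members and of each tested miRNA in the lists of other cell types; points are miRNAs, bars list medians and filled points passed the test. The members lie between 0.61 and 1.16, and of the listed miRNAs miR-15b-5p (0.66) alone lies above 0.61, while the epithelial list lies between -0.85 and -0.49.

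The miRNAs whose pattern was most like the members' were found by Spearman rho with the members' mean log2 value, over 32 libraries after subtraction of group means, among 228 miRNAs with a mean of at least 10 RPM. These values are a description, and the points share library and depth. The highest were miR-93-5p (0.66), miR-142-5p (0.65), miR-106b-5p (0.64), miR-106b-3p (0.55), miR-142-3p (0.53), miR-15a-5p (0.49), miR-15b-5p (0.42) and miR-128-3p (0.41, tied with miR-25-3p), against a median of -0.04. Within class A these 8 ranged from 0.53 to 0.74, and within class B from 0.10 to 0.68. Of the 8, miR-106b-3p was called higher at 14 days (0.62 on the log2 scale, adjusted p = 0.0241). The lowest were miR-127-3p, miR-181c-3p and miR-181c-5p (each -0.35) and miR-30e-3p (-0.34).

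miR-101a-3p shares bases 2 to 7 of its seed with miR-144-3p and is shown for that reason, with its own seed in capitals.
miR-101a-3p: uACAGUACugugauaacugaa
It was more abundant than miR-144-3p, with a mean of 1554 RPM against 83.0 RPM over 32 libraries. At 14 days it fell (log2 fold change -0.41, adjusted p = 0.0403), against 1.00 for miR-144-3p, which was not called. Its values are nearly those of miR-101c, so the 2 names are uncertain.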

How the data were processed

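Small RNA of mesenteric arteries was sequenced in 32 libraries, from 1 µg of RNA each, with 10 mice per group per the labels. Per the submitters' processing notes the tools were bcl2fastq 1.8.4, FastQC, STAR 2.3.1, R 3.2.3 and edgeR 3.6.8 with build mm10; the step each served is not given in the sources used here, nor is the annotation. The authors deposited 1 signal value per miRNA and library. Every value (100%) was a whole number of reads times a library-specific step, within 0.001 read, so the deposited signal is scaled like RPM.

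The table had 1722 rows, 364 of them 0 throughout. The highest row was kept per name and equal rows were merged. The second miR-486-5p row held 99.8% to 99.9% of the reads of the one kept, and a second miR-3107-3p row averaged 2.14 RPM. The test, on rows averaging 1 RPM or more, was limma-trend from limma 3.58.1 in R 4.3.3, on log2(value + 1), with 4 group means in 1 model, two-sided, Benjamini-Hochberg adjusted p under 0.05 over 543 rows. Fold changes on that scale understate changes of low miRNAs. The fit was also run on simulated data, with rows drawn independently at a single dispersion and without library classes. That run therefore does not cover the shared spread between these libraries. Ratios, taken after 1 was added to each value, were compared by exact two-sided permutation, and correlations by 100000 permutations within groups. Limits in reads cover counting error alone. Folds came from RNAfold (ViennaRNA 2.7.2), and positions from GENCODE on GRCm38. Classes A and B are the 2 signs of the first principal component (35.7% of the within-group variance of the other tested rows), so they come from these data.

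The alternatives were RLE and TMM factors, library totals, other filters and pseudocounts, edgeR 4.0.16 and DESeq2 1.42.0 on the recovered reads, limma-voom with quality weights, the compared groups alone, title series or class as a term, all rows unmerged, and each library left out. Named miRNAs were the members, the 3 of each list with the smallest 14-day p, and the 8 most and 4 least alike. Members and lists were chosen with earlier results of these data known.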

Additional observations from a re-analysis of the deposited data

Results flagged for a closer look

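Over the 5 members and their 5 ratios, 5 of 40 groups of 8 values had 1 library apart from the rest, by Dixon's test of its gap to the nearest library over the group's range. Chance flags about 1 in 20 groups if values are normally distributed, which was not checked for these RPM values, used without logarithms. Groups share libraries and members are correlated, so the flags are not independent. In 7-day Ang II, replicate 2 had the highest miR-144-5p (179 RPM, the next 96.2) and miR-144-3p (237 RPM, the next 122). In 7-day sham, replicate 4 had the highest miR-144-3p (119.7 RPM, the next 69.8), miR-451a (977 RPM, the next 683) and miR-486-5p (46644 RPM, the next 25616). No 14-day library stood apart in this way for any member.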

How the results depend on the processing

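Of the 5 members, 2 were called at 14 days. The count was 0 with no filter, edgeR, the compared groups alone, class A alone, class B alone or titles starting with 26. It was 1 with a pseudocount of 10, limma-voom or every row unmerged, and 4 with class as a term. It ranged from 0 to 3 over fits that left out 1 library. With library totals, under which the median over all rows was 0.23, miR-451a and miR-486-5p were called. With title series as a term they were miR-144-3p and miR-451a. Over all tested rows, 35 were called at 14 days, against 55 with edgeR, 61 with DESeq2, 80 with class as a term, 17 with no filter, 15 with limma-voom and 3 with the compared groups alone. All member log2 fold changes at 14 days stayed above 0.

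Several uncalled values changed sign. At 7 days miR-144-5p was -0.0195 with limma-voom and -0.0944 among titles starting with 28, and miR-144-3p -0.0893 in class B. The difference of effects of miR-486-5p was -0.0676 with edgeR, -0.0585 with DESeq2 and -0.0618 to 0.39 with 1 library left out. Between sham groups miR-486-3p was 0.0712 with limma-voom and -0.14 to 0.0763 with 1 left out. Between Ang II groups miR-486-5p was 0.12 with library totals, 0.0225 with title series, 0.26 with class and -0.27 to 0.0794 with 1 left out; with title series miR-144-5p was -0.16 and miR-451a -0.13, and with class miR-144-5p was -0.0291.

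The 14-day log2 ratio of miR-451a to miR-144-3p was 0.11 with a pseudocount of 10, 0.0288 in class A and -0.17 to 0.10 with 1 left out. In class A, miR-486-5p over miR-451a was -0.16 at 7 and 0.16 at 14 days, and over miR-144-3p -0.66 and 0.19. With 1 left out, miR-144-5p over miR-144-3p ran from -0.24 to 0.0037 at 7 days, and miR-486-5p over miR-451a from -0.34 to 0.0015 at 14 days. With library totals the correlations of miR-486-5p with miR-451a (0.36) and miR-486-3p (0.37) no longer passed. With miR-144-5p it was 0.59 in class A, 0.87 in class B and -0.0794 to 0.0947 with 1 left out, and with miR-144-3p 0.86 in class B and 0.21 to 0.42. With 1 left out it was 0.29 to 0.50 with miR-451a and 0.33 to 0.47 with miR-486-3p. In class A, miR-144-3p with miR-486-3p was 0.33. The causes were not tested. No paired analysis was possible because the labels give no shared replicate numbers; those used only name libraries. miR-486-3p, at 35 to 252 reads per library, is the member most limited by depth.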
